A study of Mus musculus with 16 samples.

Results

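The genes described here encode the machinery that copies DNA in S phase, together with the enzymes that supply its nucleotides, the factors that rebuild chromatin behind the fork and the E2F and cyclin regulators that switch these genes on. The list is one of gene names set by function, with no threshold on a measured value, although it was drawn up with earlier results of these data known. All 52 of 52 listed genes were found and tested, among 14838 genes that passed a filter on low counts and 27228 genes with any count. Poly(A) RNA was sequenced from primary endothelial cells of mouse brain microvessels (mBMEC), isolated from mice of 8–10 weeks that carry a floxed Pdcd10 (Ccm3) allele and Cdh5 (PAC)-CreERT2, a tamoxifen-inducible Cre recombinase driven by an endothelial promoter, so all groups carry the same alleles. All cultures were selected with puromycin, the cells were at passage 2, and a culture came from several pooled brains. Ccm3 KO cells (KO) had received 4-hydroxytamoxifen and Ccm3 WT cells (WT) had not, so loss of Ccm3 and exposure to this compound cannot be told apart. The 6 groups were untreated WT (n = 3), WT with 10 µM propranolol for 24 h (WT+P, n = 2), WT with 100 nM rapamycin for 24 h (WT+R, n = 2), untreated KO (n = 3), KO with propranolol (KO+P, n = 3) and KO with rapamycin (KO+R, n = 3). Propranolol is a beta-adrenergic receptor blocker and rapamycin inhibits the mTORC1 kinase complex, and both have been proposed for the treatment of cavernomas.

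DNA replication starts when the origin recognition complex, CDC6 and CDT1 load the MCM2-7 helicase onto origins in G1. In S phase, MCM10, CDC45 and the GINS complex turn the loaded helicase into an active one, primase and the polymerases synthesise DNA on the clamp PCNA, and flap endonuclease and ligase join the lagging strand. Most of these genes are transcribed under E2F control when cells enter the cycle, so that their summed RNA is widely used as a read-out of the share of cycling cells. Adult brain endothelium is largely quiescent, while cultured mBMEC divide. In RNA from a bulk culture, fewer cells in S phase and less RNA per cell cannot be told apart.

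Libraries held 18830503 to 26203339 counts. Pdcd10, the targeted gene, lay at 9.72, 11 and 9.73 CPM (counts scaled to the library total with TMM factors) in KO, at 13.1 to 16.7 CPM in KO+P and at 7.83 to 9.53 CPM in KO+R, against 27.7 to 60.8 CPM in 6 of the 7 libraries labelled WT, WT+P or WT+R. The library labelled WT replicate 1 stood at 11.5 CPM, at the level of KO cells. Endothelial markers were present in every library, with 12 of 12 tested and a summed level of 8540 to 16700 CPM. Among mural markers, 7 of 11 were tested. Their sum ran from 69.3 to 2490 CPM, with Tagln up to 1860 CPM and Acta2 up to 618 CPM, both in WT+R replicate 2. Higd1b was at 0 in every library, and Kcnj8 and Vtn did not exceed 0.187 CPM. The microglia and macrophage sum was 1.88 to 26.1 CPM, with P2ry12 at 0 in every library and Cd68 up to 25.6 CPM (KO replicate 3). The fibroblast sum was 5.12 to 203 CPM, with Lum at 0 and Col1a1 up to 113 CPM (KO+R replicate 3). Within each group the fibroblast sum was lowest in replicate 1, and highest in replicate 3 where there was one. Its part in the differences between replicate numbers was not tested.

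Promoter sequence was read for the members with the smallest p in KO+R against KO, the comparison with the most called members in edgeR with all libraries. RefSeq promoter windows (GRCm38.p6) of 250 bases before the start were on hand for 43 of 52 members and 27025 genes in all. At least 1 of 4 E2F words (TTTCCCGC, TTTCGCGC, TTTGCCGC or TTTGGCGC, on either strand, overlapping matches counted) occurred in 10 of 43 members (23.3%) and in 2.16% of all genes in the table. CCAAT, the NF-Y word, on either strand, was found in 28 of 43 members (65.1%) and in 37.5% of all genes. Of the members with a window, an E2F word occurred in 3 of the 16 called in KO+R against KO (18.8%) and in 7 of the 27 not called (25.9%). The 10 genes were Orc1, Cdc6, Mcm5, Mcm6, Mcm7, Gins3, Pola1, Rfc3, Uhrf1 and Dnmt1. A match is a description of letters in a window and says nothing about binding. The exon-free parts of the windows of Mcm6 (chr1:128287517-128287692, minus strand, 176 bases) and Prim1 (chr10:127850834-127851030, plus strand, 197 bases) are printed 5′ to 3′, with RefSeq sequence placed on GRCm39 by exact match. They show the called member with most E2F words beside the next called member, which has none. Capitals mark 2 overlapping E2F words of Mcm6, whose first bases lie 110 and 106 bases before the start; its other word, 47 bases before the start, lies outside the printed part.
Mcm6 promoter: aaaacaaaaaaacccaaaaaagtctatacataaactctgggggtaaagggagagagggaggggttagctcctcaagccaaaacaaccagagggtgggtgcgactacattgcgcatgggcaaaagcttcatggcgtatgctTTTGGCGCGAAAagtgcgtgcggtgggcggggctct
Prim1 promoter: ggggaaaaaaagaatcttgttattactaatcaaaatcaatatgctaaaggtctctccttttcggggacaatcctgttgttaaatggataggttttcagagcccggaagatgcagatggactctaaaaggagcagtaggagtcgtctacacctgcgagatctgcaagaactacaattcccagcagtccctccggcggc

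On GRCm39, Mcm6 spans chr1:128259311-128287516, Prim1 chr10:127851031-127867682, Pola2 chr19:5990570-6014261, Tyms chr5:30263198-30278633 and E2f2 chr4:135899585-135923368. These 5 are protein-coding genes that the results in KO cells turn on, and counts are sums over all their annotated transcripts.

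Between members, levels were compared per transcript length, in TPM (transcript abundance scaled for length and library) averaged over 16 libraries. Pcna, the sliding clamp that holds polymerases on DNA, was highest at 150 TPM, with 90.3 to 253 TPM among libraries. Rfc2 of the clamp loader followed at 51.3 TPM, the helicase subunit Mcm3 at 48.4 TPM and the single-strand binding protein Rpa1 at 47.1 TPM. The lowest were the activator E2f2 at 1.33 TPM and the origin recognition subunit Orc1 at 1.03 TPM, with as few as 5 and 3 counts in a single library. Reads carried no strand. Genes that overlap on the other strand cover 67.3% of the exonic bases of Gins2, 65.9% of Fen1, 51.0% of Chaf1a, 43.3% of Rrm2 and 41.4% of Rfc5, whose counts are therefore uncertain.

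The 52 genes differed between replicate numbers in every group. The summed level was 759, 2150 and 882 CPM in WT replicates 1, 2 and 3, 586 and 1390 CPM in WT+P, 560 and 1300 CPM in WT+R, 1130, 2170 and 1780 CPM in KO, 649, 991 and 1200 CPM in KO+P, and 643, 1320 and 1010 CPM in KO+R. Replicate 1 was the lowest library of every group. Replicate 2 was the highest of every group except KO+P. In a test of the replicate number across all 6 groups (edgeR quasi-likelihood F-test, adjusted p under 0.05), 47 of 52 members differed, beside 32.9% of all genes. The members not called were Orc6, Pola2, Pold2, Rfc2 and Rpa3. Relative to number 1, the median member was higher by 1.40 on the log2 scale in number 2 (51 of 52 above 0) and by 0.87 in number 3 (50 of 52 above 0). Rrm2, the S phase subunit of ribonucleotide reductase, showed the widest spread, with 3.07 between numbers 2 and 1. Clspn, the checkpoint mediator claspin, followed at 2.99 and the repressor E2f8 at 2.94. At the other end, Pold2, an accessory subunit of polymerase delta, showed 0.02 and Pold3 of the same polymerase -0.26. The genes also moved together. Over 16 libraries the median correlation between 2 members was 0.9, and 0.75 after the group and the replicate number had been removed. These values describe libraries that may share cultures and depth.

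**Figure D1:**
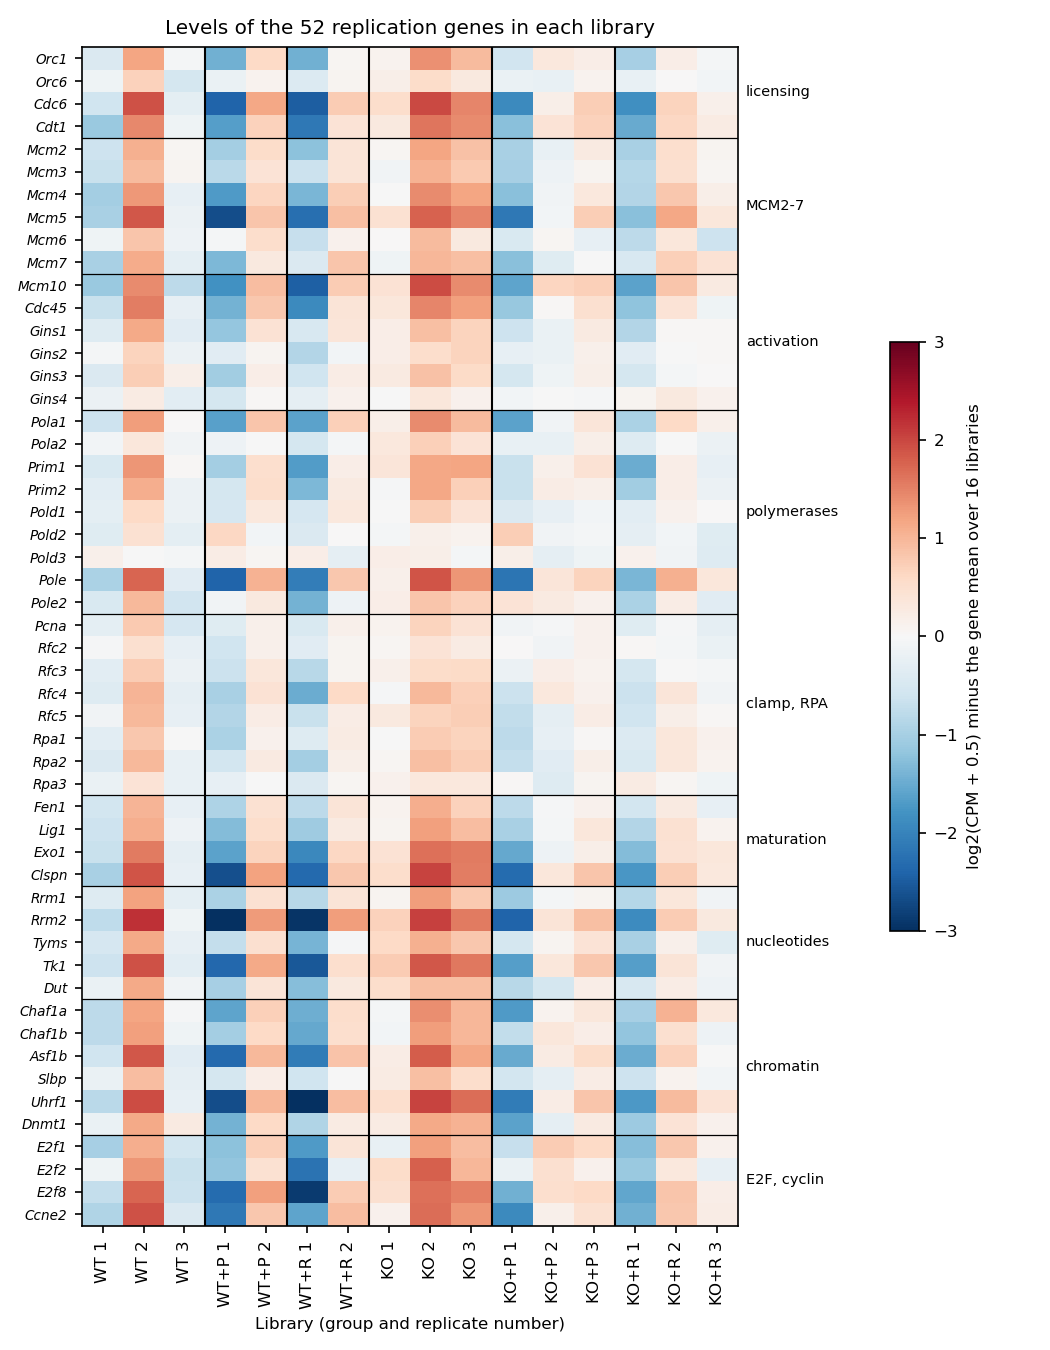
Heat map of the 52 genes (rows, grouped by role) in 16 libraries (columns, group and replicate number); colour is log2(CPM + 0.5) minus the mean of the gene over the 16 libraries. Replicate 1 is the palest or bluest column of each group, and WT 2, KO 2 and KO 3 are the reddest.

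**Figure D2:**
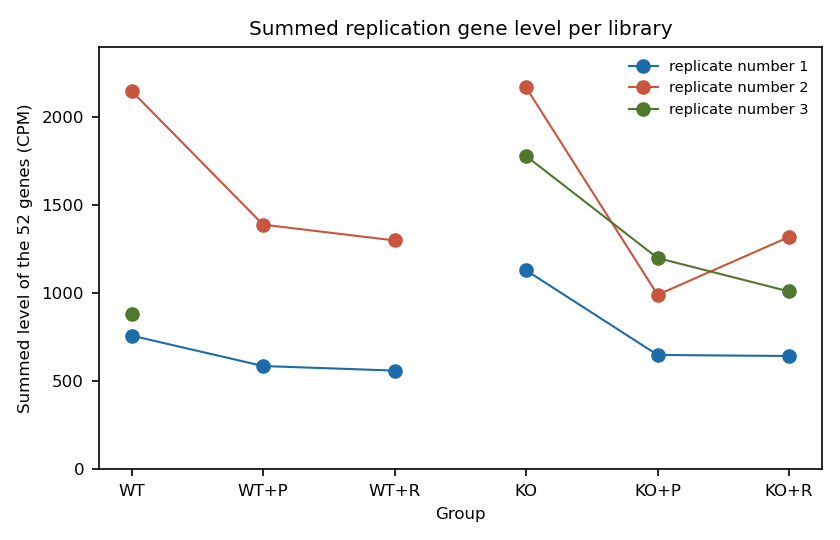
Summed level of the 52 genes in CPM (vertical axis, from 0) per library, by group; each point is 1 library and lines join libraries of the same replicate number within a genotype. Every line drops from untreated to treated cells, while the untreated WT libraries themselves span 759 to 2150 CPM.

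Comparisons were therefore made within replicate number, with that number as a term of the fit, and a gene was called at an adjusted p under 0.05 and a fold above 1.5 (edgeR quasi-likelihood test, Benjamini-Hochberg over 14838 genes). Fold changes below are log2 values ± standard error. The labels do not say that equal numbers mark 1 culture.

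Loss of Ccm3 alone was addressed by KO against WT. All 52 members had a fold change above 0, with a median of 0.56, yet none was called, beside 0.182% of all genes. An unadjusted p under 0.05 was reached by 17 of 52 members and by 13.8% of all genes, and DESeq2 with the replicate number called 3 members (E2f1, Cdt1 and Mcm10) beside 2.67% of all genes. The size of the difference varied between replicate numbers. The median log2 ratio of KO to WT was 0.74 for number 1, 0.01 for number 2 and 1.08 for number 3, and 25 members were higher in every pair.

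The 4 members with the smallest p were E2f1, Cdt1, Mcm10 and Pola2. E2f1, an activator of S phase transcription, measured 11.3, 49.8 and 15.6 CPM in WT and 19.8, 55.3 and 44.7 CPM in KO (0.79 ± 0.23, edgeR adjusted p = 0.156). Cdt1, which brings the helicase to origins, measured 5.06, 32.2 and 10.5 CPM in WT and 14.1, 35.8 and 31.5 CPM in KO (1.04 ± 0.31, edgeR adjusted p = 0.168). WT replicate 2 lay within the KO range for both genes, and the groups overlapped. Mcm10, an activator of the loaded helicase, measured 2.21, 15.3 and 2.91 CPM in WT and 7.44, 22.4 and 15.3 CPM in KO (1.51 ± 0.46, edgeR adjusted p = 0.171). Pola2, a subunit of polymerase alpha, measured 20.7, 27.9 and 20.4 CPM in WT and 27.5, 36.2 and 29.6 CPM in KO (0.44 ± 0.14, edgeR adjusted p = 0.182). Each KO library exceeded the WT library of its own number for all 4 genes. By role, the licensing genes had a median of 0.87, the E2F and cyclin genes 0.89, and the clamp, clamp loader and RPA genes 0.34. Without the library labelled WT replicate 1, none was called and the median was 0.52. Without WT replicate 3 the median was 0.32. The mural sum was 96.2, 839 and 222 CPM in WT and 69.3, 205 and 152 CPM in KO. The microglia and macrophage sum was 5.25, 12.9 and 8.94 CPM in WT and 9.72, 16.1 and 26.1 CPM in KO. No tested marker of either list was called, and their part in the result was not tested.

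With edgeR and all libraries, rapamycin in KO cells gave the most calls of the comparisons made. DESeq2 with the replicate number called 34 members with either drug in KO cells. Of 52 members, 17 fell and 0 rose, beside 3.04% of all genes called lower, 1.94% called higher and 4.98% called in either direction. An unadjusted p under 0.05 was reached by 45 members and by 23.0% of all genes. The median was -0.89, against a median near 0 over all genes, and 50 members were lower in all 3 pairs. The pair medians were -1.04, -0.76 and -0.9. Here and below, a gene that fell or rose is one that was called. The called falls covered each role except the clamp, clamp loader and RPA group, where 0 of 8 were called. In that group every member but Rpa3 was still lower in all 3 pairs.

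Among licensing genes, 1 of 4 fell. Cdt1 measured 14.1, 35.8 and 31.5 CPM in KO and 3.71, 18 and 13.7 CPM in KO+R, a change of -1.4 ± 0.32 (edgeR adjusted p = 0.0239). Each treated library was below the untreated library of its number, and the groups overlapped. Cdc6, the ATPase that loads the helicase together with CDT1, had a larger difference of -1.88 ± 0.56 that was not called (edgeR adjusted p = 0.068).

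Of the MCM2-7 helicase, 3 of 6 subunits fell. Mcm6 had the smallest p of all members, with 44.5, 86.6 and 54.3 CPM in KO and 25.4, 56.7 and 28.5 CPM in KO+R (-0.77 ± 0.13, 1.71-fold lower, edgeR adjusted p = 0.00594). Mcm3 measured 44.3, 98.7 and 82.4 CPM in KO and 26.3, 67.5 and 49.6 CPM in KO+R (-0.67 ± 0.16, edgeR adjusted p = 0.027). Mcm2 measured 41.2, 91.2 and 73.9 CPM in KO and 19.9, 56.7 and 42.3 CPM in KO+R (-0.85 ± 0.21, edgeR adjusted p = 0.0339). In all 3 genes KO+R replicate 2 lay above KO replicate 1, so the groups overlapped, while every pair pointed down. Mcm4 and Mcm5 were not called, yet their pairs pointed down as well. The log2 ratios were -0.9, -0.62 and -1.01 for Mcm4 and -1.75, -0.63 and -1.14 for Mcm5. Mcm7, another subunit of the same ring, stood apart at -0.38 ± 0.25 (edgeR adjusted p = 0.418), with 24.3, 54.1 and 50 CPM in KO and 19, 44.3 and 36 CPM in KO+R.

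Helicase activation gave 2 of 6 falls. Cdc45, which joins the MCM ring and GINS in the active helicase, measured 12.3, 27.7 and 23.3 CPM in KO and 3.92, 13 and 8.82 CPM in KO+R (-1.41 ± 0.35, edgeR adjusted p = 0.0362). Gins3 changed by -0.83 ± 0.22 (edgeR adjusted p = 0.0402). Its partner Gins4 measured 24.2, 30.8 and 26.7 CPM in KO and 25.8, 30.1 and 26.6 CPM in KO+R, a difference of 0.02 ± 0.11, the only member above 0.

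Both primase subunits and 1 polymerase subunit fell, 3 of 9 in that role. Prim1, the catalytic subunit of primase, measured 8.68, 15.6 and 15.8 CPM in KO and 2.06, 7.79 and 5.52 CPM in KO+R (-1.53 ± 0.29, 2.88-fold lower, edgeR adjusted p = 0.0115). Pola2 measured 27.5, 36.2 and 29.6 CPM in KO and 16.6, 21.7 and 19.5 CPM in KO+R (-0.69 ± 0.14, edgeR adjusted p = 0.0128). For these genes each KO library was above each KO+R library. Prim2, the large subunit of primase, measured 8.41, 19.8 and 14.5 CPM in KO and 3.92, 9.92 and 7.57 CPM in KO+R (-1.01 ± 0.21, edgeR adjusted p = 0.0156), with overlap between KO replicate 1 and KO+R replicate 2. The polymerase delta subunits Pold1, Pold2 and Pold3 were at -0.44, -0.31 and -0.23 and were not called. The 250-base promoter window of Prim1 holds none of the E2F words, while that of Mcm6 holds 3, not all in the printed part.

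For the nucleotide supply, 3 of 5 genes fell. Tyms, thymidylate synthase, measured 17.3, 24.2 and 20.1 CPM in KO and 5.51, 12.6 and 8.69 CPM in KO+R, with no overlap (-1.29 ± 0.27, 2.44-fold lower, edgeR adjusted p = 0.017). Rrm1, the large subunit of ribonucleotide reductase, measured 44.5, 102 and 72.7 CPM in KO and 23, 53.4 and 39.4 CPM in KO+R (-0.92 ± 0.22, edgeR adjusted p = 0.0291). Tk1, the S phase thymidine kinase, had the largest fall among called members at -2.04 ± 0.53 (4.11-fold lower, edgeR adjusted p = 0.0417). Rrm2 was close to it at -1.91 ± 0.63 and was not called (edgeR adjusted p = 0.0947).

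In the remaining roles, Chaf1b, a subunit of the chromatin assembly factor, measured 10.4, 27 and 22.6 CPM in KO and 4.55, 15.6 and 9.8 CPM in KO+R (-1.07 ± 0.22, edgeR adjusted p = 0.0145). E2f2, an activator E2F, measured 4.42, 11.1 and 6.17 CPM in KO and 1.06, 3.65 and 2.32 CPM in KO+R (-1.66 ± 0.41, 3.17-fold lower, edgeR adjusted p = 0.032). The E2f2 groups did not overlap and those of Chaf1b did. The flap endonuclease Fen1 (-0.82), the maintenance methyltransferase Dnmt1 (-1.01) and the ligase Lig1 (-0.86) also fell. Of the clamp group, Pcna was at -0.63 ± 0.2, Rfc2 at -0.3 ± 0.18 and Rpa3 at -0.2 ± 0.21, and none passed.

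**Figure D3:**
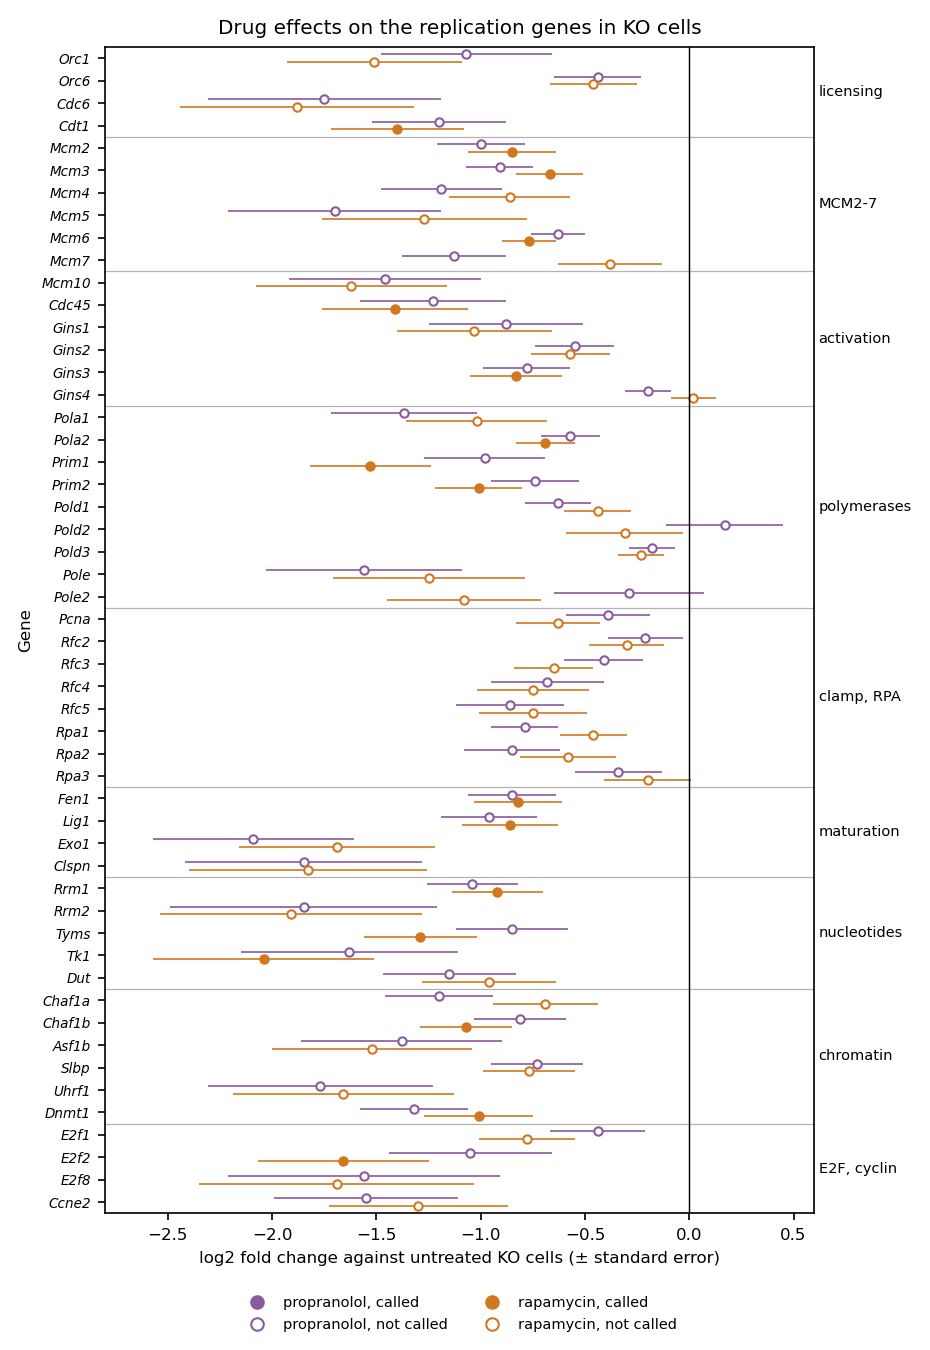
log2 fold change ± standard error against untreated KO cells (horizontal axis) of each of the 52 genes (rows, by role) for propranolol (purple) and rapamycin (orange); filled points are called. With rapamycin 17 points are filled, all left of 0, and no propranolol point is filled although 51 of 52 lie left of 0.

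The rapamycin calls rested on the replicate number in the fit. Without it 0 members were called, although 51 of 52 stayed below 0 with a median of -0.88, and DESeq2 with the number called 34 beside 7.92% of all genes. Leaving out one KO or KO+R library left 1 to 8 members called: 1 without KO replicate 1, 8 without KO replicate 2, 2 without KO replicate 3, 1 without KO+R replicate 1 and 3 without KO+R replicate 2 or 3. The calls over all genes in the same fits are not given here, so the losses cannot be read as particular to the members. The summed mural and the summed microglia and macrophage levels also differed between the KO and KO+R libraries. The mural sum was 69.3 to 205 CPM in KO and 271 to 451 CPM in KO+R, mostly Tagln and Acta2, and 0 of 7 tested mural markers were called. Notch3 of the same list went the other way, with 1.78, 3.72 and 4.44 CPM in KO and 0.741, 1.27 and 1.87 CPM in KO+R. The microglia and macrophage sum was 9.72 to 26.1 CPM in KO and 3.44 to 8.46 CPM in KO+R, mostly Cd68, and Cd68 and Csf1r, 2 of 3 tested, were called lower. Csf1r lay near the floor, with 0.465, 0.19 and 0.355 CPM in KO and 0, 0.041 and 0 CPM in KO+R. Ptprc, also tested, measured 0.0387, 0.417 and 0.0888 CPM in KO and 0.212, 0.082 and 0.134 CPM in KO+R, with no common direction. The endothelial sum was 13400 to 15100 CPM in KO and 15000 to 16300 CPM in KO+R, higher in every pair, with 1 of 12 markers called. The part of these lists in the result was not tested.

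Other genes of DNA replication, 69 in a separate list, held 12 calls in KO+R against KO. Of these 10 were lower, and the median of the list was -0.43, beside 4.98% of all genes called and 3.04% called lower. Cdc7, the kinase that fires origins, measured 3.45, 8.27 and 5.6 CPM in KO and 1.27, 2.58 and 2.14 CPM in KO+R (-1.5 ± 0.29, edgeR adjusted p = 0.0105), with no overlap. The deoxycytidine kinase Dck (-1.44), the S phase cyclin Ccna2 (-1.89), the fork protein Timeless (-0.71), the chromatin remodeller Hells (-1.25) and Cdca7 (-1.18) also fell. Both genes called higher stood against the direction of the members. Rb1, the retinoblastoma protein that restrains E2F, measured 24.4, 26.9 and 27.5 CPM in KO and 38, 52.8 and 49 CPM in KO+R (0.82 ± 0.1, edgeR adjusted p = 0.00145). Ctps1, which makes CTP, measured 176, 180 and 164 CPM in KO and 438, 316 and 294 CPM in KO+R (1.01 ± 0.18, edgeR adjusted p = 0.00676). The groups did not overlap for either gene. Of 26 G2/M genes, which act in mitosis after replication, 6 fell (Aurka, Ccnb1, Espl1, Nusap1, Bub1b and Kif20a) and 0 rose, beside the same 3.04% of all genes called lower, and the median was -1.64. Genes on the other strand cover 61.5% of the exonic bases of Kif20a and 38.6% of those of Aurka.

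Propranolol in KO cells gave lower values for most members with no call. The median was -0.94, 51 of 52 members were below 0 and 50 were lower in all 3 pairs, while 0 members were called, beside 0.142% of all genes. Adjusted p ran from 0.0509 to 0.74 (edgeR). An unadjusted p under 0.05 was reached by 42 of 52 members against 25.0% of all genes, and DESeq2 with the replicate number called 34 members beside 7.12% of all genes.

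Mcm3 was nearest to the threshold, with 44.3, 98.7 and 82.4 CPM in KO and 23.8, 42.9 and 51 CPM in KO+P (-0.91 ± 0.16, edgeR adjusted p = 0.0509). Dnmt1, which copies DNA methylation onto the new strand, measured 42.4, 78.9 and 75 CPM in KO and 11.5, 29.8 and 43.3 CPM in KO+P (-1.32 ± 0.26, edgeR adjusted p = 0.0608). Both groups overlapped through KO replicate 1 and KO+P replicate 3. Rpa1 measured 60.4, 104 and 96.1 CPM in KO and 35.1, 51.4 and 62.5 CPM in KO+P (-0.79 ± 0.16, edgeR adjusted p = 0.0619). Mcm6 measured 44.5, 86.6 and 54.3 CPM in KO and 32.1, 46.1 and 37.3 CPM in KO+P (-0.63 ± 0.13, edgeR adjusted p = 0.0619). Every treated library was below the untreated one of its number for these genes. The largest difference was that of the exonuclease Exo1 at -2.09 ± 0.48, and the only member above 0 was Pold2 at 0.17 ± 0.28.

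The third KO+P replicate stood apart. Its median log2 ratio was -0.63, against -1.02 and -1.2 in the first and second. Without KO+P replicate 3, 36 members were called, all lower, with a median of -1.2, among 1579 of 14816 genes called. The endothelial sum was 13400 to 15100 CPM in KO and 9230 to 13300 CPM in KO+P. Its part in the result was not tested. In the other lists, 0 of 69 replication genes and 0 of 26 G2/M genes were called with propranolol. The edgeR unadjusted p was under 0.05 for 37 and 24 of them, and the list medians were -0.48 and -1.52.

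Both drugs were compared with the same untreated libraries, so their effects are given side by side, and a direct contrast of the treated libraries was added after the values were seen. In KO+R against KO+P, 0 members were called, beside 9.62% of all genes; 1 member had an edgeR unadjusted p under 0.05, against 31.3% of all genes, and DESeq2 with the replicate number called that 1, Mcm7, beside 12.3%. The median difference was -0.04, with 0.02, 0.36 and -0.32 in the 3 pairs, and its sign turned with single libraries: dropping KO+P replicate 2 gave -0.26, whereas dropping KO+P replicate 3 gave 0.29. Mcm7 measured 10.9, 20.7 and 26.4 CPM in KO+P and 19, 44.3 and 36 CPM in KO+R, higher with rapamycin by 0.75 ± 0.25 (edgeR adjusted p = 0.0656). Pole2, a subunit of polymerase epsilon, lay at the other end with -0.78 ± 0.38 (edgeR adjusted p = 0.18). A p above the threshold does not show that the drugs act alike. In the same contrast Rb1 (0.97 ± 0.11) and Ctps1 (1.42 ± 0.18) were called higher with rapamycin.

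In WT cells medians were closer to 0 and 1 member was called. For either drug, the pair of number 1 uses the library labelled WT replicate 1. Its Pdcd10 level of 11.5 CPM was that of KO cells, against 60.8 CPM in WT+P replicate 1 and 52 CPM in WT+R replicate 1. The interactions below use the same library. With rapamycin the median was -0.57, 51 of 52 members were below 0 and 49 were lower in both pairs. Of 52 members 1 fell, beside 2.39% of all genes called lower and 4.56% called in either direction. An unadjusted p under 0.05 was reached by 13 members and by 20.4% of all genes, and DESeq2 with the replicate number called 3 (E2f2, Prim1 and Prim2) beside 6.66% of all genes. E2f2 measured 2.58, 7.92 and 1.6 CPM in WT and 0.224 and 2.32 CPM in WT+R (-1.95 ± 0.5, edgeR adjusted p = 0.0439), and the lowest of these values rests on 5 counts. The groups overlapped, and the call was lost without the replicate number, without WT replicate 1 or 2 and without WT+R replicate 1. Mcm6 measured 40.6, 79.2 and 40 CPM in WT and 27.4 and 48.4 CPM in WT+R. Its change of -0.57 ± 0.15 passed the adjusted p (0.0488, edgeR) and missed the fold of 1.5. Prim2 (-0.78 ± 0.24) and Prim1 (-1.05 ± 0.34) followed by p, and neither was called. Leaving out WT replicate 3, which has no treated partner, gave 6 member calls. The calls over all genes in that fit are not given here. Without WT replicate 2 the median was -0.29, with 41 of 52 members below 0. The mural sum was 96.2 to 839 CPM in WT and 1460 and 2490 CPM in WT+R, mostly Tagln and Acta2, which were called higher. Other markers of this list were mixed. Notch3 measured 1.43, 4.11 and 2.21 CPM in WT and 0.448 and 1.85 CPM in WT+R. Rgs5 measured 0.322, 0.299 and 0.943 CPM in WT and 0.0895 and 0.043 CPM in WT+R. Both were lower in each pair, while Pdgfrb and Myh11 were higher in each pair. The microglia and macrophage sum was 5.25 to 12.9 CPM in WT and 1.88 and 5.59 CPM in WT+R, with 1 of 3 tested markers called (Cd68, lower). The endothelial sum was 13000 to 16700 CPM in WT and 14600 and 14700 CPM in WT+R, with 3 of 12 called (Eng and Emcn higher, Egfl7 lower). The part of these markers in the result was not tested. Rb1 (0.74 ± 0.12) and Ctps1 (0.94 ± 0.2) rose in WT cells as well.

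With propranolol in WT cells the median was -0.45, 50 of 52 members were below 0 and 0 were called, beside 0.0809% of all genes. The edgeR unadjusted p was under 0.05 for 3 members, against 13.4% of all genes, and DESeq2 with the replicate number called 0, beside 0.737%. Rpa1 measured 48.3, 107 and 59.7 CPM in WT and 31.1 and 66.6 CPM in WT+P (-0.52 ± 0.18, edgeR adjusted p = 0.344). Dnmt1 measured 31.2, 79.1 and 43.5 CPM in WT and 13.1 and 54.2 CPM in WT+P (-0.65 ± 0.29, edgeR adjusted p = 0.369). The groups overlapped for both genes. Gins3 and Rfc5, also among the 4 smallest p, were both at -0.56. Leaving out WT replicate 2 took the median to -0.1, with 36 of 52 members below 0, and leaving out WT+P replicate 1 took it to -0.27. The endothelial sum was 13000 to 16700 CPM in WT and 8540 and 12500 CPM in WT+P, with 0 of 12 markers called, and its part in the result was not tested.

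**Figure D4:**
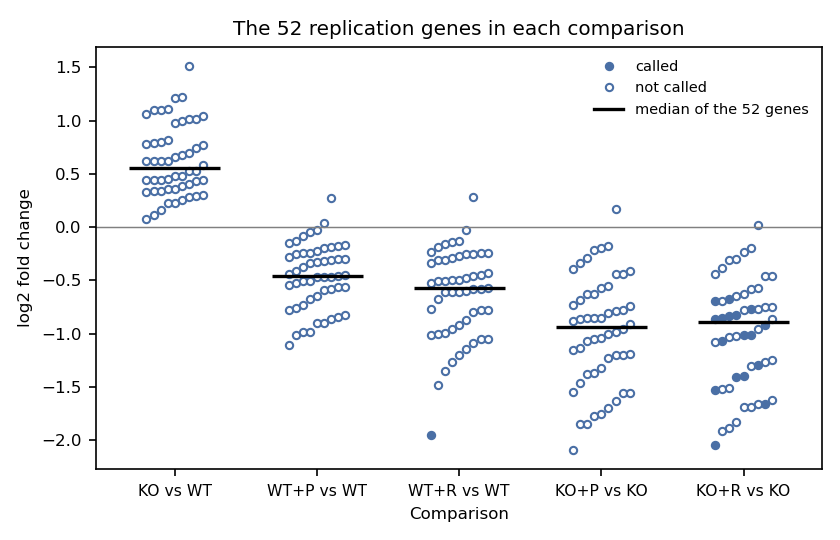
log2 fold change (vertical axis) of the 52 genes, 1 point a gene, in the 5 comparisons with untreated cells; filled points are called and bars are medians. The medians are 0.56 for KO against WT, -0.45 and -0.57 for propranolol and rapamycin in WT, and -0.94 and -0.89 in KO.

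Whether a drug acted differently by genotype was tested as an interaction. For propranolol 0 of 52 members passed, beside 0% of all genes, and for rapamycin likewise 0 of 52, beside 0% (edgeR adjusted p under 0.05). The unadjusted p was under 0.05 for 2 members (Mcm6 and Mcm3) with propranolol and 0 with rapamycin, against 2.84% and 1.93% of all genes, and DESeq2 with the replicate number called 0 members in both, beside 0.0441% and 0.0661%. The larger medians in KO cells are thus not shown to differ from those in WT cells, where each drug had 2 libraries. Between the drugs in WT cells (WT+R against WT+P) 0 members were called, beside 4.93% of all genes, with a median of -0.15 that went to -0.43 without WT+R replicate 2 and to 0.11 without WT+P replicate 2. An unadjusted p under 0.05 was reached by 3 members there and by 24.0% of all genes, and DESeq2 called 0, beside 8.45%.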

How the data were processed

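Polyadenylated, unstranded, paired-end RNA-seq of 16 mBMEC libraries was used. The authors filtered the reads and deposited Salmon (v1.5.2) transcript estimates. The deposited files hold expected counts, TPM values and effective lengths. The study's own differential tests used STAR and HTSeq counts, which were not used here, so values may differ from its own. The index build of the Salmon run is not given in the sources used here; the processing notes name GRCm39. The 140789 transcripts were summed to genes with GENCODE vM39 (GRCm39), which holds 139544 of them and at least 99.43% of the counts of each library. Expected counts were rounded.

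Genes were filtered with filterByExpr, scaled with TMM and fitted with edgeR (v4.0.16) quasi-likelihood over all 6 groups with replicate number as a block (8 residual degrees of freedom). Samples with the same number deviated together (36 pairs, r 0.03 to 0.69, median 0.52), while different numbers had a median of -0.23. Values were first centred on the mean of each group, so a positive r within a number forces a lower r between numbers. The median of -0.23 is thus no separate evidence of pairing. In the comparisons with 3 replicates in each group, r was above 0.1 in every pair. Calls needed an adjusted p under 0.05 and a fold above 1.5; interactions and replicate numbers needed the adjusted p alone. TPM served only to rank levels between genes. On simulated data for KO+R against KO (14838 genes), 81% of 2-fold and 100% of 4-fold changes were recovered, with 5.2% false calls. Counts were drawn independently for each gene with the spread typical of its level. Changes were given only to genes above a minimum mean count. The members moved together, so these rates do not carry over to them. DESeq2 (v1.42.0) was the alternative, with R 4.3.3.

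The members and lists were chosen with earlier results of these data known. Per-sample values are given for up to 12 called members of a comparison by smallest p, or for 4 members where fewer than 4 were called. Other called genes were named by smallest p, up to 8 a comparison and list, and promoters for up to 6 called members. Depth limits the values of E2f2, E2f8 and Orc1 most. Nothing in the labels says whether equal replicate numbers share a culture. The p-values measure the spread that remains after group and replicate number are fitted, not the full spread between cultures.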

Additional observations from a re-analysis of the deposited data

Results flagged for a closer look

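Pold3, an accessory subunit of polymerase delta, was marked because propranolol gave opposite directions in the 2 genotypes. The KO+P to KO log2 ratios were -0.02, -0.46 and -0.07, with a mean of -0.18, and the WT+P to WT ratios were 0.07 and 0.06. The interaction of propranolol and genotype was -0.22 ± 0.17 for this gene (edgeR adjusted p = 1), so the difference did not pass its test. No group held the 4 samples needed for a test of single libraries.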

How the results depend on the processing

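Of 656 values of named members under alternatives, 537 kept both direction and side of the threshold, 88 lost the call, 31 gained one and 0 reversed. These members were named for the smallest p in their comparison, so few reversals could arise, and the count says nothing of the other members. The counts of called members moved as follows. Without the replicate block, KO+R against KO and WT+R against WT both went to 0. With DESeq2 and the replicate block, KO against WT gave 3, KO+P against KO 34, KO+R against KO 34, WT+R against WT 3 and KO+R against KO+P 1. With DESeq2 and no replicate block, KO+R against KO gave 1 and WT+R against WT 0. RLE size factors gave 1 in KO+P against KO, and no filter on low counts gave 12 (194 of 27228 genes). An effective length offset gave 9 in KO+R against KO (632 of 14838 genes), 0 in WT+R against WT and 1 in KO+R against KO+P. Fitting only the groups compared gave 41 (1534 of 13590 genes), 30 (1392 of 13892) and 1 (827 of 13500) in the same 3 comparisons. An adjusted p with no minimum fold gave 2 in WT+R against WT. Where calls over all genes are given neither here nor above, a count says nothing particular to the members. The causes were not tested.

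Leaving out one library gave 1 to 14 called members in KO+R against KO, 0 to 36 in KO+P against KO (36 without KO+P replicate 3), 0 to 6 in WT+R against WT (6 without WT replicate 3), 0 to 2 in KO+R against KO+P (2 without KO+P replicate 3), 0 to 1 in WT+R against WT+P (1 without WT+P replicate 2) and 44 to 49 in the test of replicate numbers. Where 1 library remained in a group, it was assumed to vary like the others. Except where given above, calls over all genes in the same fits are not set beside these counts. The counts thus say nothing particular to the members. KO against WT, WT+P against WT and both interactions stayed at 0 in these fits. The median over all 52 members ran from -0.99 to -0.77 in KO+R against KO, -1.2 to -0.72 in KO+P against KO, 0.32 to 0.82 in KO against WT, -0.74 to -0.29 in WT+R against WT and -0.65 to -0.1 in WT+P against WT. It changed sign in both contrasts between the drugs, from -0.26 to 0.29 in KO and from -0.43 to 0.11 in WT cells. Leaving out WT replicate 1 in comparisons without WT libraries, and both contrasts between the drugs, were chosen after seeing the data.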
